A study of Mus musculus with 6 samples.

Results

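The Elfn, Slitrk and Flrt genes encode cell-surface proteins that organize synapses and guide neurites, and their levels were described here in retinal ganglion cells (RGCs), the neurons whose axons form the optic nerve. The study compared gene expression in these cells at embryonic day 18 (E18) and postnatal day 5 (P5), an interval over which their capacity for axon growth declines. The set holds 10 genes, Elfn1 and Elfn2, Slitrk1 to Slitrk5, and Flrt1 to Flrt3, which were taken by symbol from the 24060 genes of the count table. All 10 were among the 16449 genes that passed the filter on low counts. The families were selected on their function with the E18 and P5 values of this table already known, so the age differences of the 10 genes are given as a description, without a p-value, and nothing rests on them.

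RNA was sequenced from 3 samples at E18 and 3 at P5, all from C57BL/6 mice, and the labels name no genetic change or treatment. The labels call the cells embryonic mouse RGCs at E18 and early postnatal mouse RGCs at P5, and the samples are numbered 1, 3 and 4 at E18 and 6, 8 and 9 at P5. In both groups, retinas were dissociated with papain, macrophages were removed by antibody, and RGCs were bound to dishes by antibodies against CD90 (Thy1). The count column of E18 replicate 1 carries the numbers 1, 2 and 5, and whether it is a pool is not stated. The labels do not say how many mice went into a sample or that samples came from separate litters, so the spread between samples may be partly technical.

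Elfn1 and Elfn2 are single-pass membrane proteins with leucine-rich repeats and a fibronectin type III domain, and Elfn1 is known for recruiting group III metabotropic glutamate receptors across the synaptic cleft, among other places at the rod photoreceptor synapse. Slitrk proteins carry leucine-rich repeats and bind the LAR-type receptor tyrosine phosphatases of the presynaptic membrane. Flrt proteins share leucine-rich repeats and a fibronectin domain, bind latrophilins and Unc5 receptors on neighbouring cells, and associate with FGF receptors in their own membrane. In the retina, proteins of these kinds take part in layering and in the choice of synaptic partners.

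The samples held 81213639 to 114512853 counted reads, and levels are given as CPM, read counts scaled to a common library size, with library sizes normalized by the trimmed mean of M-values. The summed level of 11 RGC marker genes was 5360 to 6380 CPM at E18 and 6470 to 7830 at P5. Nefl was the largest part of it, at a mean of 1814.5 CPM at E18 and 2914.3 at P5. Of the 11, 2 (Isl1 and Sncg) were higher and 4 (Nefl, Slc17a6, Thy1 and Pou4f3) lower at E18 past an adjusted p of 0.05 in edgeR's quasi-likelihood test across all genes. Among all genes tested, 20.8% were higher and 22.5% lower. Rbpms, Pou4f1, Pou4f2, Nefm and Ebf3 did not pass. E18 replicates 1 and 3 stood apart from the other samples in genes of other cells. Tfap2b, a transcription factor of amacrine cells, was at 47.5, 119 and 1.62 CPM in E18 replicates 1, 3 and 4 and at 1.02 to 1.55 at P5, and the summed level of 6 genes of dividing cells was 189, 46.5 and 10.1 CPM at E18 and 5.70 to 16.3 at P5. The summed levels of the other lists at E18 and P5 were 49.7 to 74.3 and 69.9 to 97.4 CPM for bipolar cells, 3.68 to 10.7 and 3.59 to 4.60 for photoreceptors, 65.1 to 112 and 41.5 to 47.0 for horizontal cells, 322 to 354 and 241 to 284 for Müller glia and astrocytes, and 2.12 to 2.71 and 1.56 to 2.24 for microglia. Since these are bulk samples, fewer cells of a type and less RNA per cell cannot be told apart. For the 10 genes and some of the others, age differences are therefore also given for E18 replicate 4 alone against the P5 samples. That setting was chosen after the data were seen.

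Past that threshold, 6 of the 10 were lower at E18, and 2 (Slitrk2 and Flrt3) were higher, against 43.4% of all genes tested, 22.5% lower and 20.8% higher. The E18 and P5 values did not overlap in 8 of the 10, against 56.1% of all genes tested. The median log2 fold change of E18 over P5 was -0.42 for the 10 genes and 0.00 (0.004727 before rounding) for all genes tested. With E18 replicate 4 alone, 2 of the 10, Elfn1 and Elfn2, passed the threshold, against 9.48% of the 17227 genes tested in that setting.

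**Figure D1:**
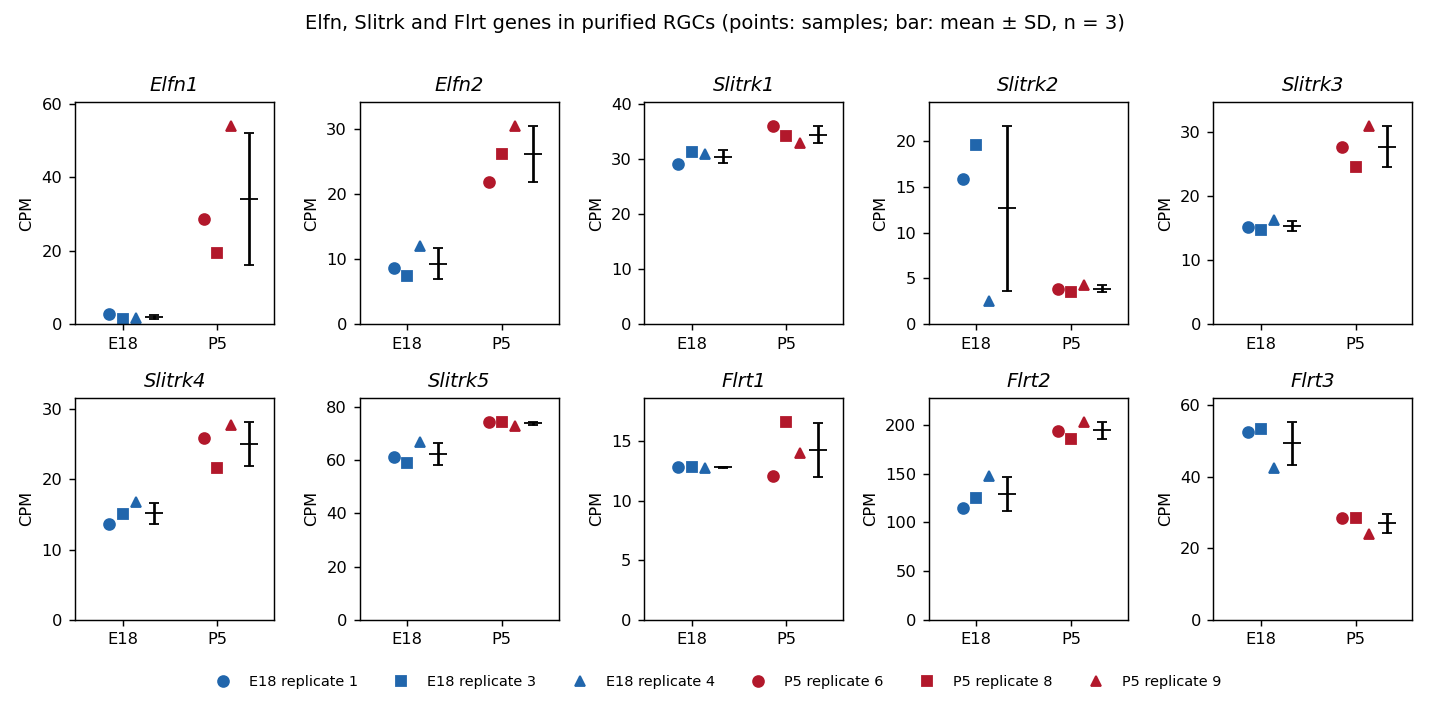
Level of each gene in CPM, by age, with one point per sample and a bar for the mean ± SD (n = 3 per age). Elfn1 and Elfn2 sat lower in every E18 sample than in any P5 sample, Flrt3 sat higher, and Slitrk2 was high in E18 replicates 1 and 3 only.

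Elfn1 (ENSMUSG00000048988.8, chromosome 5 of mm10, 139907943 to 139974722, plus strand) had the largest age difference of the 10. Its levels were 2.65, 1.47 and 1.69 CPM in E18 replicates 1, 3 and 4 and 28.7, 19.5 and 54.0 CPM in P5 replicates 6, 8 and 9, from 220, 165 and 153 reads at E18 and 2544, 1915 and 5082 at P5. Every E18 sample lay far below every P5 sample, and P5 replicate 9 was the highest. Elfn1 averaged 1.94 ± 0.628 CPM in the E18 and 34.1 ± 17.9 CPM in the P5 samples (SD, n = 3), a fitted log2 fold change of -4.14 (standard error 0.404). With E18 replicate 4 alone it was -4.32.

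Elfn2 (ENSMUSG00000043460.7, chromosome 15, 78667331 to 78718771, minus strand), the paralog of Elfn1, was at 8.61, 7.36 and 11.9 CPM at E18 (11.95 before rounding, in replicate 4) and at 21.9, 26.2 and 30.5 CPM at P5. The ages did not overlap, and E18 replicate 4 lay nearest to the P5 samples. The log2 fold change was -1.49 (standard error 0.198), and -1.12 with E18 replicate 4 alone. An antisense gene, 1700041B01Rik, shares 266 exon bases with Elfn2, 3.28% of its exon length, and reads there may be misassigned if strand was not used in counting.

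Elfn1 was higher relative to Elfn2 in every P5 sample than in any E18 sample. There were 0.308, 0.200 and 0.141 Elfn1 reads for each Elfn2 read in the E18 samples and 1.31, 0.743 and 1.77 in the P5 samples, a ratio within a library that does not depend on its scaling. By level per kilobase of exon, Elfn1 made up 21.6% to 37.5% of the Elfn total at E18 and 59.1% to 77.5% at P5. Both genes together summed to 1.26 to 1.88 CPM per kilobase of exon at E18 and to 7.89 to 16.7 at P5. The shares depend on the length used. Elfn1 has 4172 exon bases and 2484 coding bases, and Elfn2 has 8112 and 2469. Per kilobase of coding sequence, Elfn1 and Elfn2 averaged 0.780 and 3.77 CPM at E18 and 13.7 and 10.6 CPM at P5. In P5 replicate 8, Elfn1 had fewer reads than Elfn2.

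The promoter windows of both genes, from 250 bases before to 50 bases after the RefSeq start, are shown because Elfn1 differed most of the 10 and Elfn2 is its paralog. Capitals mark the GC box GGGCGG on either strand. The windows lie at chr5:139907616-139907915 (plus strand) and chr15:78718722-78719021 (minus strand) of GRCm38.p6 and are written 5′ to 3′ on the strand of the gene.
Elfn1: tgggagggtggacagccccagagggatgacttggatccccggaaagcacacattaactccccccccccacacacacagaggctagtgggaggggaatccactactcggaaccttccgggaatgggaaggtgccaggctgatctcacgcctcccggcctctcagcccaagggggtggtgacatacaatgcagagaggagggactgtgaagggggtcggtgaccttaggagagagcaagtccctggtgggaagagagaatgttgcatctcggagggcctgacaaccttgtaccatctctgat
Elfn2: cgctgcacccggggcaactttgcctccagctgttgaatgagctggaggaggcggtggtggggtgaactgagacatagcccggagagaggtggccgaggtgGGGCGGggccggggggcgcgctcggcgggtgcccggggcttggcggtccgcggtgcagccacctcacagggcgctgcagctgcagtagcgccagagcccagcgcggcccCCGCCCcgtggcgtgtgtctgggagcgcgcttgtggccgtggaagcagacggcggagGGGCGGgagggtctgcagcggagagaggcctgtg
The Elfn2 window holds 3 GC boxes, 29 CG dinucleotides and 73.3% G and C. The Elfn1 window holds no GC box, 7 CG dinucleotides and 59.0% G and C. Of all 32851 windows in the reference, 35.7% hold a GC box, the median number of CG dinucleotides is 7 and the median G and C content is 52.7%.

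Among the Slitrk genes, Slitrk5 and Slitrk1 were the most abundant and varied least between the ages. Slitrk5 (ENSMUSG00000033214.10, chromosome 14, 111675097 to 111683141, plus strand), which is also known as a partner of the BDNF receptor TrkB, was at 61.3 (61.25 before rounding), 59.0 and 66.9 CPM at E18 and at 74.2, 74.2 and 73.0 CPM at P5. The ages did not overlap but were close. The log2 fold change was -0.24 (standard error 0.0868), and -0.13 with E18 replicate 4 alone. Slitrk5 was among the genes past the threshold with all samples, and in 8 of the 14 alternative settings it was not. Slitrk1 (ENSMUSG00000075478.3, chromosome 14, 108908800 to 108914158, minus strand), a promoter of neurite outgrowth, was at 29.1, 31.2 and 30.9 CPM at E18 and at 36.0, 34.3 and 32.997 CPM at P5. Its log2 fold change of -0.18 (standard error 0.0928) was not past the threshold, although every E18 sample lay below every P5 sample. With E18 replicate 4 alone, the log2 fold change was -0.145.

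Slitrk3 and Slitrk4 were lower at E18 in every sample. Slitrk3 (ENSMUSG00000048304.8, chromosome 3, 73047265 to 73057803, minus strand), which is known for building inhibitory synapses, was at 15.2, 14.7 and 16.2 CPM at E18 and at 27.7, 24.5 and 31.0 CPM at P5. The E18 samples lay close together and apart from the P5 samples, and the log2 fold change was -0.85 (standard error 0.119). Slitrk4 (ENSMUSG00000046699.14, chromosome X, 64264885 to 64276996, minus strand) was at 13.7, 15.1 and 16.7 CPM at E18 and at 25.9, 21.6 and 27.7 CPM at P5, with a log2 fold change of -0.72 (standard error 0.133). Against the P5 samples, E18 replicate 4 alone gave -0.76 for Slitrk3 and -0.57 for Slitrk4.

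Slitrk2 (ENSMUSG00000036790.5, chromosome X, 66649318 to 66661393, plus strand), a Slitrk of excitatory synapses, was the only one of the 10 in which E18 samples lay on both sides of all P5 samples. Its levels were 15.9, 19.6 and 2.51 CPM in E18 replicates 1, 3 and 4 and 3.84, 3.48 and 4.27 CPM at P5, from 1317, 2202 and 227 reads at E18 and 340, 343 and 402 at P5. Replicates 1 and 3 were high and replicate 4 was below every P5 sample. The fitted log2 fold change was 1.71 (standard error 0.583) with all samples and -0.61 with E18 replicate 4 alone, so the direction turned. The gene was past the threshold with all samples and not in DESeq2, without E18 replicate 1 or 3, or without P5 replicate 6, 8 or 9.

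The samples with high Slitrk2 were those with high levels of genes of amacrine and progenitor cells. Of the 10 amacrine genes, 9 were tested. Past the threshold, 5 were higher at E18 and none was lower, against 20.8% higher among all genes tested. Gad2 and Slc6a9 had negative log2 fold changes (-0.28 and -0.21) that did not pass. The list summed to 764, 958 and 638 CPM at E18 and to 528 to 653 at P5, most of it from Pax6, which RGCs also express. Chat, the acetylcholine-synthesizing enzyme of starburst amacrine cells, was at 5.59, 10.9 and 0.287 CPM in E18 replicates 1, 3 and 4 and at 0.237 to 0.797 at P5. Sox2, a factor of progenitors, Müller glia and starburst amacrine cells, was at 45.7, 69.3 and 0.950 CPM at E18 and at 0.790 to 1.48 at P5. Of 7 progenitor genes, 4 were higher at E18 past the threshold and none was lower, against the same 20.8% higher among all genes. That list summed to 268, 129 and 37.1 CPM at E18 and to 18.8 to 34.0 at P5. The 6 endothelial and pericyte genes summed to 71.2, 63.9 and 15.3 CPM at E18 and to 10.7 to 15.2 at P5. Most of this sum at E18 was Kdr, at 69.5, 62.9 and 14.1 CPM, the only gene of the list that was higher at E18 past the threshold. Another 2 of the list were lower at E18 past it, Rgs5 (0.0964 to 0.133 CPM at E18 and 1.47 to 3.08 at P5) and Pecam1 (0.562 to 0.895 and 2.09 to 2.67 CPM), and Cdh5 was at or near 0 in all samples, with at most 6 reads. Both Tfap2b and Sox2 were higher in replicate 3 than in replicate 1, as Slitrk2 was, whereas the dividing-cell sum was higher in replicate 1. The part of these cells in the Slitrk2 result was not tested.

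**Figure D2:**
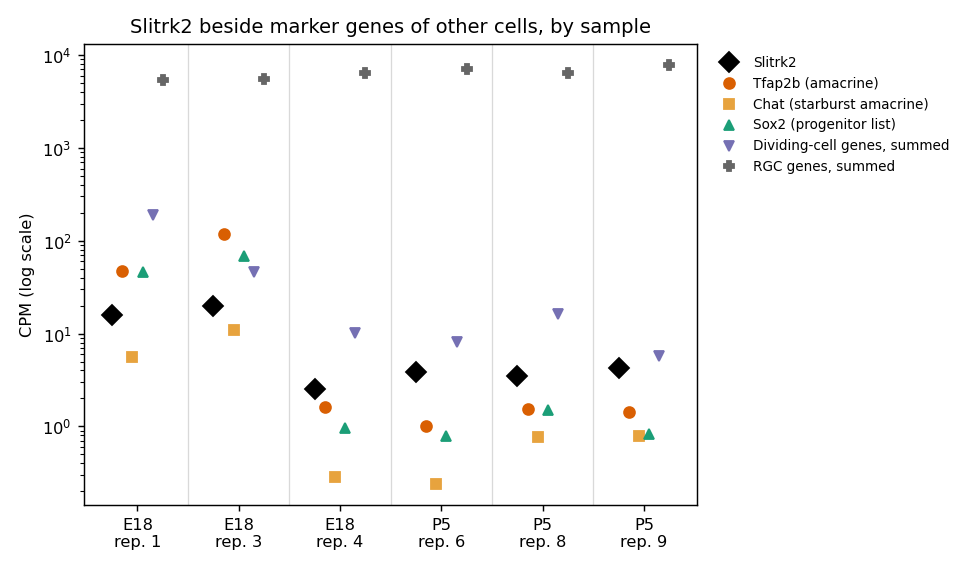
Slitrk2, Tfap2b, Chat and Sox2 and the summed dividing-cell and RGC genes in each sample, in CPM on a log scale. Slitrk2 was at 15.9 and 19.6 CPM in E18 replicates 1 and 3, where Tfap2b was at 47.5 and 119 CPM, and at 2.51 to 4.27 CPM in the other 4 samples, where Tfap2b was at 1.02 to 1.62 CPM.

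Flrt2 was the most abundant of the 10, and Flrt2 and Flrt3 differed between the ages in opposite directions. Flrt2 (ENSMUSG00000047414.6, chromosome 12, 95692226 to 95785215, plus strand), a ligand of Unc5 receptors and latrophilins, was at 114, 125 and 148 CPM at E18 and at 194, 185 and 203 CPM at P5. Every E18 sample was lower, and replicate 4 lay nearest to P5. The log2 fold change was -0.59 (standard error 0.109), and -0.38 with E18 replicate 4 alone.

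Flrt3 (ENSMUSG00000051379.12, chromosome 2, 140650914 to 140671469, minus strand), which is known for axon guidance and FGF signalling, was at 52.5, 53.3 and 42.4 CPM at E18 and at 28.6, 28.5 and 23.9 CPM at P5. It was the only one of the 10 that was higher in every E18 sample. The log2 fold change was 0.87 (standard error 0.125), and 0.66 with E18 replicate 4 alone. Flrt1 (ENSMUSG00000047787.8, chromosome 19, 7092001 to 7105729, minus strand) was at 12.9, 12.8 and 12.8 CPM at E18 and at 12.1, 16.7 and 14.1 CPM at P5, so the ages overlapped (log2 fold change -0.16, standard error 0.138). With E18 replicate 4 alone, the log2 fold change of Flrt1 was -0.15. Flrt1 lies within the span of Macrod1 and Flrt3 within that of Macrod2, both on the opposite strand, and no exon base is shared.

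Within each library, there were 0.460, 0.428 and 0.287 Flrt3 reads for each Flrt2 read at E18 and 0.148, 0.154 and 0.118 at P5. By level per kilobase of exon, Flrt3 made up 29.0% to 38.9% of the Flrt total at E18 and 14.6% to 17.9% at P5, and Flrt2 made up 53.3% to 63.7% and 73.4% to 78.3%. The Flrt total itself was 27.8 to 30.0 CPM per kilobase at E18 and 32.7 to 33.6 at P5.

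The promoter windows of Flrt2 and Flrt3 are shown because these paralogs differed in opposite directions. Capitals mark the E-box CACGTG. The windows lie at chr12:95691976-95692275 (plus strand) and chr2:140671427-140671726 (minus strand) of GRCm38.p6.
Flrt2: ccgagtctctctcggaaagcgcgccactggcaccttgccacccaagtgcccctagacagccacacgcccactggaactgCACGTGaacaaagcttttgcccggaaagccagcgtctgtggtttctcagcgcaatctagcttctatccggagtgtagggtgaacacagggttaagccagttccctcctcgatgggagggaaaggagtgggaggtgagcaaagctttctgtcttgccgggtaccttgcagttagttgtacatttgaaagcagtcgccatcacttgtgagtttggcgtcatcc
Flrt3: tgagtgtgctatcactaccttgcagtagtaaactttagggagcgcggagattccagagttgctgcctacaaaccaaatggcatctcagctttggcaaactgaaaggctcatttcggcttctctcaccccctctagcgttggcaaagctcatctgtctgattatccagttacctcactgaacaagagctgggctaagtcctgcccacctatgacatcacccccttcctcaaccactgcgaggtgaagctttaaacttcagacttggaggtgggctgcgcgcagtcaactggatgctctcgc
The Flrt2 window holds 1 such E-box and 14 CG dinucleotides, and the Flrt3 window holds no such E-box and 8 CG dinucleotides. Of all windows, 7.15% hold CACGTG. RefSeq windows were matched for 8 of the 10 genes, and Slitrk4 and Flrt1 had none in the table used. The other motifs searched on both strands were TATAAA (held by 13.6% of all windows), CCAAT (held by 37.4% of them), CCGGAAGT (held by 3.89% of them), TGACGTCA (held by 1.79% of them) and TTCAGCACC (held by 0.371% of them). TGACGTCA, the cyclic AMP response element, occurred once, in a window of Slitrk2 at chrX:66652909-66653208, and CCAAT occurred in that window and in the Slitrk3 window. None of the other 3 motifs occurred in a window of these genes. The GC box also occurred 2 times in the Slitrk5 window and once in that Slitrk2 window. A match is a description of letters, not of a bound site.

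**Figure D3:**
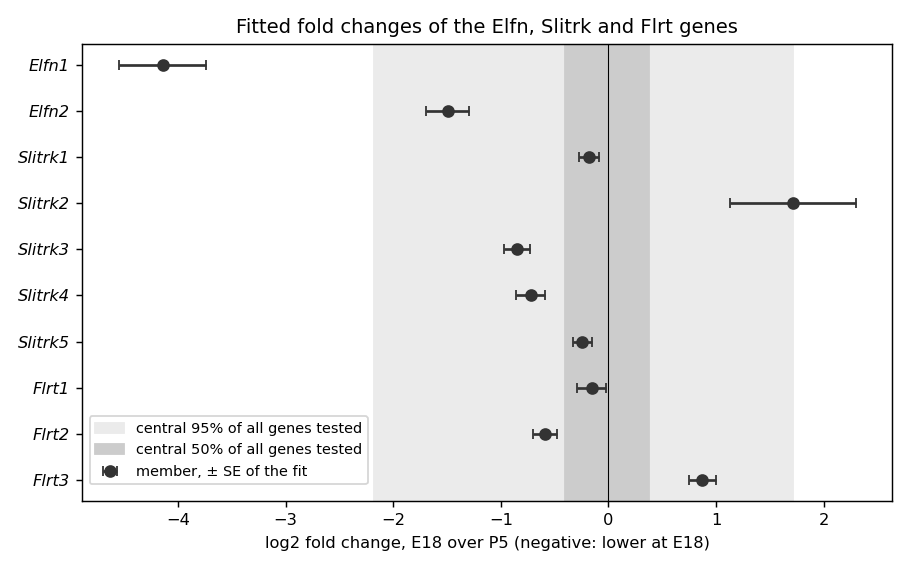
Fitted log2 fold change of E18 over P5 for each of the 10 genes with its standard error, over bands of all 16449 genes tested, the outer one leaving out 2.5% of genes at each end (-2.175 to 1.715) and the inner one leaving out 25% at each end (-0.40 to 0.38). Elfn1 at -4.14 lay outside the wider band on the lower side, and Slitrk2 at 1.71 lay at its upper edge with the widest error.

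To compare genes with each other, CPM was divided by the kilobases of exon of each gene. At E18 the order was Flrt2 (16.7 ± 2.23), Slitrk5 (11.9 ± 0.769, 11.85 before rounding), Flrt3 (10.2 ± 1.24), Slitrk1 (5.68 ± 0.213), Slitrk3 (3.17 ± 0.162), Flrt1 (2.18 ± 0.00631), Slitrk4 (1.74 ± 0.173), Slitrk2 (1.57 ± 1.11), Elfn2 (1.15 ± 0.293) and Elfn1 (0.465 ± 0.151) CPM per kilobase (SD, n = 3 each; Elfn1 0.4645 before rounding). Of neighbours in this order, Slitrk4 and Slitrk2, and Slitrk2 and Elfn2, overlapped in their samples. At P5 the order was Flrt2 (25.1 ± 1.16), Slitrk5 (14.0 ± 0.133), Elfn1 (8.16 ± 4.29), Slitrk1 (6.43 ± 0.285), Slitrk3 (5.72 ± 0.669), Flrt3 (5.55 ± 0.549), Elfn2 (3.23 ± 0.530), Slitrk4 (2.87 ± 0.362), Flrt1 (2.43 ± 0.388) and Slitrk2 (0.478 ± 0.0490) CPM per kilobase (SD, n = 3 each). From Elfn1 to Flrt3 each neighbour overlapped the next, as did Elfn2 with Slitrk4 and Slitrk4 with Flrt1. Elfn1 thus stood at position 10 at E18 and at position 3 at P5, or at position 5 when coding length was used.

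**Figure D4:**
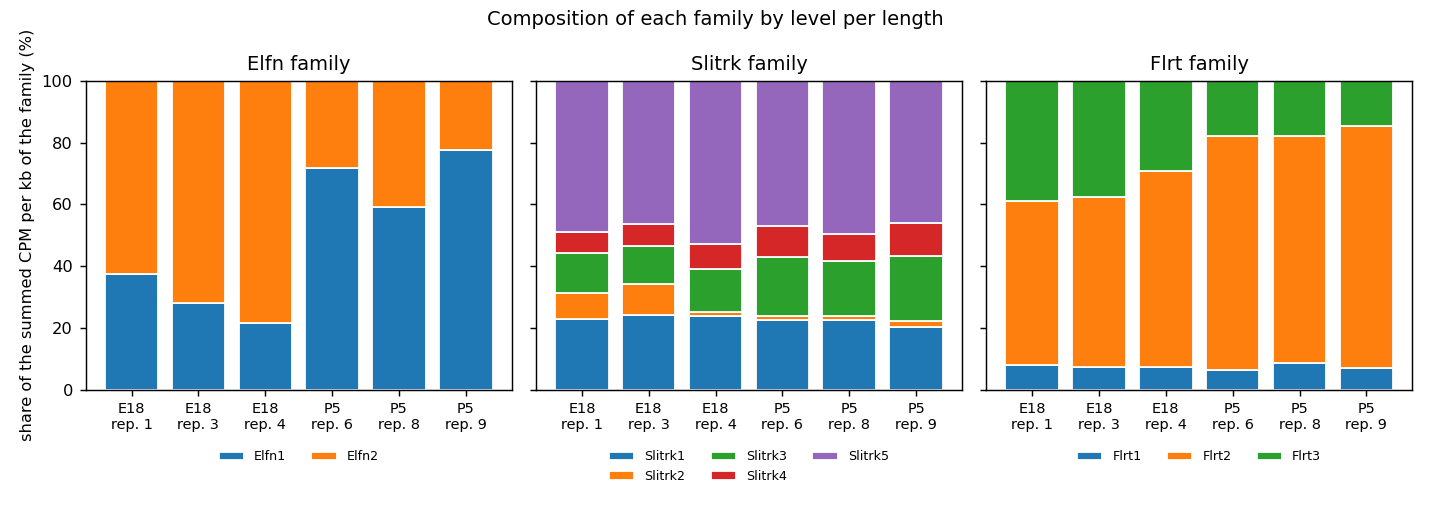
Share of each gene in the summed CPM per kilobase of exon of its family, in percent, with one stacked bar per sample. The shares depend on the length used and would differ by coding length. Elfn1 made up 21.6% to 37.5% of the Elfn bars at E18 and 59.1% to 77.5% at P5, while Slitrk5 stayed between 46.1% and 52.8% of the Slitrk bars in all 6 samples.

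The summed level of the 5 Slitrk genes was 23.7 to 24.2 CPM per kilobase at E18 and 28.5 to 30.1 at P5. Slitrk5 made up 46.1% to 52.8% and Slitrk1 20.4% to 24.1% of it in all samples, Slitrk3 12.5% to 13.9% at E18 and 17.8% to 21.2% at P5, and Slitrk2 8.28%, 10.03% and 1.29% in E18 replicates 1, 3 and 4 and 1.52% to 1.76% at P5.

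The 10 genes share a gene structure that the choice did not use, with the whole coding sequence in 1 exon in all 10. The same held for 12 of the 30 other leucine-rich repeat genes listed here, Slitrk6 among them, and for 0 of the 21 binding partners. The coding length was 1947 to 2022 bases in the Flrt genes, 2088 to 2940 in the Slitrk genes, and 2469 and 2484 in Elfn2 and Elfn1. E18 replicate 4 was the E18 sample nearest to the P5 samples in 6 of the 8 genes without overlap, against 46.8% of the 9230 genes without overlap.

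The genes with the most similar profile over the 6 samples were sought by Pearson's r of log2(CPM + 0.5), among those averaging 10 CPM or more. For Elfn1 these were Vsnl1 (r = 0.999), Hprt (0.998) and Btbd11 (0.998), for Slitrk5 Snx4 (0.998), Pcdha2 (0.993) and Neurl1a (0.993), and for Flrt2 Klhl18 (0.998), Lhfpl3 (0.998) and Scamp1 (0.997). These values describe 6 samples that fall into both ages and were picked as the highest of 9724 genes, so they carry no p-value.

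The known binding partners were tested in the same fit. Their p-values come from edgeR's quasi-likelihood test with Benjamini-Hochberg adjustment over all genes. The list was made by function, with earlier results of these data known, so the p-values are not independent of that choice. Of 21 partner genes, 20 were tested, and 7 were lower and 3 higher at E18 than at P5 past the threshold, against 43.4% of all genes. Their median log2 fold change was 0.02. With E18 replicate 4 alone, 3 passed, Unc5a, Unc5d and Fgfr2, against 9.48% of all genes in that setting.

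The receptors of Elfn proteins, the group III metabotropic glutamate receptors, were lower at E18 or did not pass. Grm4 was at 7.41, 5.56 and 6.76 CPM at E18 and at 13.1, 11.3 and 20.1 CPM at P5, with a log2 ratio of -1.18 ± 0.224 (SE, edgeR adjusted p = 0.00393). Its ages did not overlap, and the log2 fold change was -1.125 with E18 replicate 4 alone. P5 replicate 9 was highest, as for Elfn1 and, among others, Elfn2, Unc5a, Unc5d and the RGC marker Thy1. Grm7 was at 50.5, 42.2 and 51.7 CPM at E18 and at 89.0, 51.6 and 88.2 CPM at P5 (log2 ratio -0.66, SE 0.198, edgeR adjusted p = 0.0257). P5 replicate 8 lay at the E18 level, and the call was lost without E18 replicate 1 or 3 or P5 replicate 6 or 9. Grm8 did not pass (34.5 ± 1.92 and 31.0 ± 5.65 CPM, SD, n = 3 each, edgeR adjusted p = 0.412). Grm6, the receptor of ON bipolar cells, had 3 reads in each E18 sample and 0 to 2 at P5 and was not tested.

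The genes of the LAR-type phosphatases, receptors of Slitrk proteins, had high read levels, and 2 of the 3 were higher at E18. Ptprs was at 607, 552 and 588 CPM at E18 and at 385, 451 and 411 CPM at P5, a log2 ratio of 0.49 ± 0.0905 (SE, edgeR adjusted p = 0.00352). Ptprf was at 229, 228 and 249 CPM at E18 and at 159 (158.5 before rounding), 187 and 176 CPM at P5, a log2 ratio of 0.44 ± 0.0928 (SE, edgeR adjusted p = 0.00629). In both genes every E18 sample was above every P5 sample. With E18 replicate 4 alone the log2 fold changes were 0.51 and 0.53, and neither passed. Ptprd, at 547 ± 123 and 451 ± 54.0 CPM in the E18 and P5 samples (SD, n = 3), did not pass (edgeR adjusted p = 0.186).

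Among the partners of Flrt proteins, the Unc5 receptors split. Unc5d, a repulsive receptor for Flrt2, was at 8.78, 7.27 and 7.02 CPM at E18 and at 26.3, 22.1 and 43.2 CPM at P5, a log2 ratio of -1.99 ± 0.241 (SE, edgeR adjusted p = 0.000613). Unc5a was at 5.85, 6.16 and 4.38 CPM at E18 and at 10.2, 9.83 and 13.5 CPM at P5, a log2 ratio of -1.03 ± 0.189 (SE, edgeR adjusted p = 0.00331). The ages did not overlap in either gene. Unc5c, the most abundant Unc5 gene, was at 107 ± 13.1 and 108 ± 24.0 CPM in the E18 and P5 samples (SD, n = 3; log2 ratio -0.02, SE 0.162, edgeR adjusted p = 0.938). Unc5b, at 2.02 ± 0.311 and 1.93 ± 0.695 CPM (SD, n = 3 each), did not pass either (edgeR adjusted p = 0.874).

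Latrophilins did not pass. Lphn1 was at 355 ± 5.51 CPM in the E18 and 373 ± 46.8 CPM in the P5 samples, and Lphn3 at 194 ± 9.52 and 209 ± 7.89 CPM (SD, n = 3 each, edgeR adjusted p = 0.619 and 0.309). Lphn2, at 124 ± 5.65 and 96.4 ± 18.7 CPM (SD, n = 3 each), had an edgeR adjusted p of 0.0536 and was called in 6 of the 14 alternative settings, among them DESeq2. Among the teneurins, which bind latrophilins, 2 were lower and 1 was higher at E18. Tenm3 was lower at E18 (log2 ratio -0.46, edgeR adjusted p = 0.00709), as was Tenm1 (-0.54, adjusted p = 0.00669), whereas Tenm4 was higher (0.36, adjusted p = 0.0233) and Tenm2 did not pass (0.10, adjusted p = 0.472). The Tenm4 call was lost without E18 replicate 1, 3 or 4 or P5 replicate 6.

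Of the FGF receptors, Fgfr2 was at 2.44, 2.01 and 1.82 CPM at E18 and at 11.2, 8.34 and 9.93 CPM at P5. Its log2 ratio of -2.23 ± 0.190 (SE, edgeR adjusted p = 0.000166) was the largest among the partners, and it was -2.42 with E18 replicate 4 alone. Fgfr1, at 9.96 ± 1.48 and 8.21 ± 2.37 CPM, and Fgfr3, at 0.308 ± 0.0308 and 0.202 ± 0.0776 CPM (SD, n = 3 each), did not pass (edgeR adjusted p = 0.320 and 0.210).

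**Figure D5:**
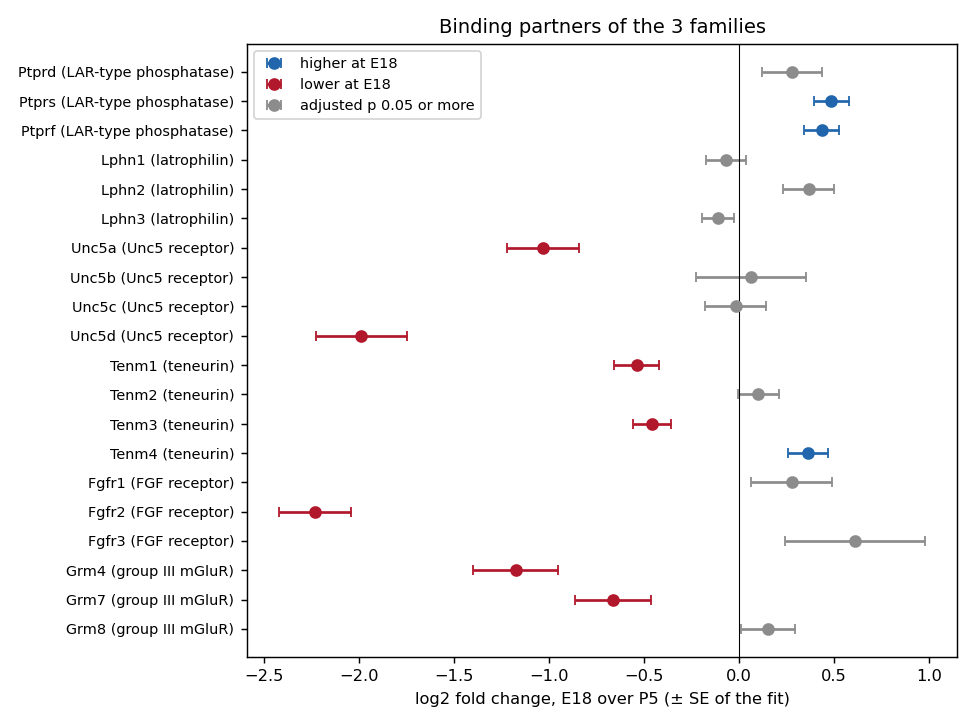
Log2 fold change of E18 over P5 with its standard error for the 20 partner genes tested, coloured by the call of edgeR's quasi-likelihood test. Fgfr2 (-2.23), Unc5d (-1.99), Grm4 (-1.18) and Unc5a (-1.03) lay farthest to the left, and Ptprs (0.49), Ptprf (0.44) and Tenm4 (0.36) were called on the right.

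Other neuronal surface proteins with leucine-rich repeats, also listed with earlier results of these data known, were set beside the 10 genes. Their p-values are likewise not independent of that choice. Of 30 such genes, 16 passed the threshold, 12 of them lower and 4 higher at E18, against 43.4% of all genes. Slitrk6, the remaining Slitrk gene, was at 11.2, 11.6 and 17.0 CPM at E18 and at 22.9, 18.335 and 28.9 CPM at P5, a log2 ratio of -0.82 ± 0.209 (SE, edgeR adjusted p = 0.0139), and its call was lost without E18 replicate 3. With E18 replicate 4 alone, the log2 fold change of Slitrk6 was -0.45. Among those of the 30 averaging 1 CPM or more, the most negative log2 ratios of E18 over P5 were those of Lingo3 (-1.60, edgeR adjusted p = 0.000463), Lingo4 (-0.87, adjusted p = 0.0175) and Slitrk6. Among the same genes, the most positive were those of Islr2 (0.79, edgeR adjusted p = 0.00261), Amigo3 (0.55, adjusted p = 0.0171) and Lrig2 (0.37, adjusted p = 0.0202). Islr2, the gene of an axonal protein, was at 1306 ± 126 and 757 ± 140 CPM in the E18 and P5 samples (SD, n = 3). Below a mean of 1 CPM, at 0.946 CPM over all samples, Lrig3 had a larger positive log2 ratio of 2.84 (edgeR adjusted p = 0.000806). It was at 1.66 ± 0.681 CPM at E18 and at 0.231 ± 0.0443 CPM at P5 (SD, n = 3 each). Lrig3 is named after its values were seen. The calls of Lingo4, Amigo3 and Lrig2 were lost when single samples were left out (E18 replicate 3 for each of them). With E18 replicate 4 alone, 4 of the 30 passed, against 9.48% of all genes in that setting.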

How the data were processed

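RNA from immunopanned RGCs was sequenced in 3 E18 and 3 P5 samples. The authors aligned paired-end reads to mm10 with STAR and counted them over RefSeq genes with HT-seq, and they deposited raw counts per gene. The submitters' processing notes name CASAVA 1.8.2 and edgeR. The labels name polyA RNA, whereas the protocol names ribosomal RNA depletion, and a strand setting is not given in the sources used here. The authors also deposited a normalized signal per sample, log2 fold changes, p-values and a rank score from their own comparison, and none of these was used. A total of 0 columns could not be mapped to a sample.

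Counts were analysed in R 4.3.3 with edgeR 4.0.16 (filterByExpr, TMM, quasi-likelihood test on age, all 6 samples, Benjamini-Hochberg adjustment over 16449 genes, threshold 0.05). Fold changes are E18 over P5. The procedure was tested on simulated data, but no outcome of that test is given here and nothing rests on it. Totals of 81213639 to 114512853 counts per sample put most of the spread between samples rather than in counting. Within an age, samples differed by far more than sampling noise (chi-square per degree of freedom 30.5 to 141), so none was a plain re-count of another's library. That value cannot tell whether separate libraries came from the same RNA or mice. The labels give no batch, and since they do not name separate animals, p-values measure only the spread between these samples.

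The members and all gene lists were chosen with earlier results of these data known. The genes named were the 10 members, every binding partner, Slitrk6, the 3 called leucine-rich repeat genes with the largest fold in each direction at a mean of at least 1 CPM, and the 3 genes most like Elfn1 and the most abundant member of each family. Per-kilobase levels used exon unions of GENCODE M21, and promoters came from RefSeq on GRCm38.p6. Alternatives were other scalings, filters and tests (among them DESeq2 1.42.0), coding length, and leaving out each sample.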

Additional observations from a re-analysis of the deposited data

How the results depend on the processing

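No paired analysis was possible because the ages share no replicate number (1, 3 and 4 at E18, 6, 8 and 9 at P5). The labels give no batch, and 3 samples per age limit every test. Over 14 settings, 126 of 140 member fits kept their direction and side of the threshold, 14 kept the direction only, and 0 reversed. Those 14 were Slitrk2 in 6 settings and Slitrk5 in 8. The number of members past the threshold was 6 to 8. Over all 36 named members and listed genes, 459 of 503 fits kept both, 32 lost a call, 7 gained one and 5 reversed. Those 5 were of genes not called with all samples. When single samples were left out, the log2 fold change ranged from -0.18 to 0.37 for Unc5b, from -0.16 to 0.14 for Unc5c and from -0.01036 to 0.22 for Grm8. The number of all genes past the threshold ranged from 4575, without E18 replicate 3, to 8796, without P5 replicate 8.

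With E18 replicate 4 alone against the P5 samples, chosen after the data were seen, 1633 of all genes, 2 members, 3 partners and 4 other leucine-rich repeat genes passed. The lone sample is there assumed to vary like the P5 samples, and fewer samples were tested. The log2 fold changes that reversed were those of Slitrk2 (-0.61), Ptprd (-0.0242) and Unc5b (-0.0794), and the cause was not tested. By coding length, Slitrk1 was at position 3 and Elfn1 at position 5 at P5, and Flrt2 was at position 1 at both ages. Other positions also moved. Slitrk3 went from position 5 to 7 at E18 and from 5 to 8 at P5, and Flrt3 from 3 to 2 and from 6 to 4. The whole order by coding length was Flrt2, Flrt3, Slitrk5, Slitrk1, Flrt1, Slitrk4, Slitrk3, Slitrk2, Elfn2 and Elfn1 at E18. At P5 it was Flrt2, Slitrk5, Slitrk1, Flrt3, Elfn1, Elfn2, Slitrk4, Slitrk3, Flrt1 and Slitrk2.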

Other observations

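Outside the rule for named genes and chosen after their values were seen, the profiles of the 2 members higher at E18 were compared with those of other genes. For Slitrk2, the genes with the highest Pearson's r over the 6 samples were Tgfb3 (r = 0.993), the long noncoding RNA Sox2ot (0.988), at a mean of 38.3 CPM at E18 and 2.99 at P5, and Sox2 (0.9748), at 38.7 and 1.03 CPM. For Flrt3 they were Prdx6 (0.997), G3bp1 (0.997) and Syne2 (0.997), at 59.9, 121 and 297 CPM at E18 and 38.3, 88.8 and 127 CPM at P5. The values describe 6 samples of 2 ages and carry no p-value.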
